A study of Mus musculus with 6 samples.

Results

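Chemokines and their receptors are described here in mouse bone marrow with and without Cbx2. The genes were taken by name from the deposited table: every row named Ccl, Cxcl, Ccr or Cxcr followed by a number, together with Cx3cl1, Cx3cr1 and Xcr1. This gave 57 of the 22838 genes in the table, of which 38 encode ligands and 19 encode receptors. Marrow of the tibia and femur had been taken from 3-week-old wild-type mice and from Cbx2-/- mice, with 3 animals of each genotype and 1 library per animal. All the animals had a mixed 129/C57BL/6 background and no other treatment or allele is given in the labels. The labels describe neither the Cbx2 allele nor the sex of the animals. The Cbx2-/- animals were much smaller, with a mean body weight of 4.0 g against 12.3 g in the wild-type group, so genotype and body size cannot be told apart here.

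Chemokines are small secreted proteins that direct cell movement through receptors coupled to G proteins. They are classed by the spacing of their first cysteines: CC ligands act on Ccr receptors, CXC ligands on Cxcr receptors, and Cx3cl1 on Cx3cr1. In marrow, Cxcl12 from reticular stromal cells holds haematopoietic stem cells, B cell precursors and neutrophils in place through Cxcr4, while Cxcr2 and its ligands draw neutrophils out into the blood. Ccr2 has a similar part in the exit of monocytes. Cbx2 is a chromobox protein of Polycomb repressive complex 1, and Polycomb complexes in mammals gather at CG-rich promoters.

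For that reason the promoters of Cxcl12, Cxcr4 and Cxcr2 are shown, and that of Ccr1, the receptor with the largest difference among the tested genes, with each CG pair in capitals. They are RefSeq sequences of GRCm38.p6, read 5′ to 3′ on the strand of the gene, and each stretch ends before the first annotated exon. The Cxcl12 stretch is chr6:117168285-117168534, plus strand, and that of Cxcr4 is chr1:128592300-128592549, minus strand. The Cxcr2 stretch is chr1:74153744-74153988, plus strand, and that of Ccr1 is chr9:123968693-123968942, minus strand.
Cxcl12: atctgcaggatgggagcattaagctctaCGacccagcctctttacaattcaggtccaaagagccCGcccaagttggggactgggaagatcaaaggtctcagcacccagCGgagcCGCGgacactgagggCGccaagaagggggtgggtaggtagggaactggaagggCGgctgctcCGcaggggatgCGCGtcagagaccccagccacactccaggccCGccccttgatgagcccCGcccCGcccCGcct
Cxcr4: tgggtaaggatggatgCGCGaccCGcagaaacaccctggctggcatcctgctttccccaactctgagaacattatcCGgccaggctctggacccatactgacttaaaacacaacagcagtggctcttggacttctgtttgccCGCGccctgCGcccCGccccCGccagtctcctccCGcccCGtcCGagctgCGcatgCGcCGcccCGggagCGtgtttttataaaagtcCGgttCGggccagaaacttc
Cxcr2: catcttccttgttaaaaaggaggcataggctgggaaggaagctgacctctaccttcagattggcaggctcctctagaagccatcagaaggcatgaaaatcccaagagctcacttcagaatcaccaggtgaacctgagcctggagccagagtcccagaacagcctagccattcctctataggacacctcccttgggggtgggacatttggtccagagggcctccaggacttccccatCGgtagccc
Ccr1: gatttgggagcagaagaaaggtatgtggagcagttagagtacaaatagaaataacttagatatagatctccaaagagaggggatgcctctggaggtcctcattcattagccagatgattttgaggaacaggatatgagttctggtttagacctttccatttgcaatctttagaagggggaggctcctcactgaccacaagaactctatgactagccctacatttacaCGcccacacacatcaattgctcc
The Cxcl12 and Cxcr4 stretches held 14 and 19 CG pairs, and those of Cxcr2 and Ccr1 held 1 each. RefSeq promoters of 300 bases (250 before and 50 after the first listed start site) matched 41 of the 57 genes. The motif searched was CG, which reads the same on both strands. Of the other genes past the threshold used below, Cx3cl1 held 19 CG pairs in these 300 bases, Ccl19 10 and Ccr2 1. Ccr7 was not among the matched genes. The median number of CG pairs was 3 in the 15 receptor promoters, 6 in the 26 ligand promoters and 7 in 27025 genes of the RefSeq table. At least 10 CG pairs were present in 6.7% of the receptor promoters, 42.3% of the ligand promoters and 43.9% of all genes, and Cxcr4 was the receptor gene that reached this number. This describes the sequences only, and no Polycomb binding was measured.

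The libraries differed in makeup beyond the chemokine genes. Cbx2 itself was at 2.90, 3.83 and 2.75 FPKM in the wild-type and 2.11, 1.87 and 1.88 FPKM in the Cbx2-/- libraries, apart but not past the threshold used below (limma adjusted p = 0.0558), and the deleted part of the gene is not given. FPKM scales fragments to transcript length and to the fragments mapped in a library, so levels can be compared between genes. Correlations of log2 levels ran from 0.986 to 0.989 between wild-type libraries and from 0.946 to 0.987 between Cbx2-/- libraries. Marker lists of marrow cell types were summed in each library, and no listed gene in the table was at 0 in all 6 libraries. Sums were lower in every Cbx2-/- library than in any wild-type library for B cell precursors (113 to 220 against 1030 to 1296 FPKM), red cell precursors (541 to 778 against 1763 to 2213 FPKM) and eosinophils, basophils and mast cells (319 to 520 against 983 to 1382 FPKM). Osteoblast markers were lower in the same way (651 to 1012 against 6560 to 10806 FPKM), and adipocyte markers were higher (2033 to 2624 against 209 to 413 FPKM), as were those of maturing neutrophils, promyelocytes, monocytes, macrophages, endothelium and reticular stroma. Skeletal muscle markers summed to 337 and 403 FPKM in Cbx2-/- replicates 1 and 2, against 12 FPKM in replicate 3 and 20.9 to 27.5 FPKM in the wild-type libraries. In bulk tissue, fewer cells of a type and less RNA per cell cannot be told apart, and the part of these shifts in the chemokine results below was not tested.

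**Figure D1:**
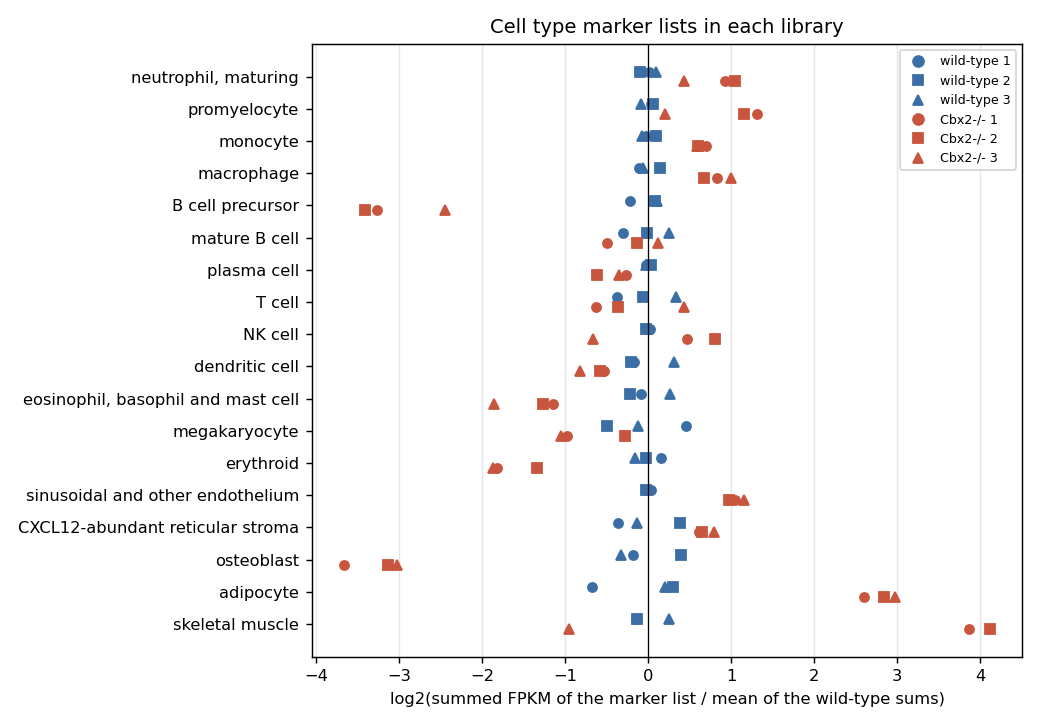
Summed FPKM of each marker list in each library, as log2 of the ratio to the mean of the 3 wild-type sums (horizontal axis); each point is 1 library, blue for wild-type and red for Cbx2-/-. Sums of B cell precursor and red cell precursor markers sit left of all wild-type points, and skeletal muscle markers are high in Cbx2-/- replicates 1 and 2 alone.

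Within the name rule, which leaves out the abundant platelet chemokines Pf4 and Ppbp, few genes made up most of the expression. Cxcl12 took 65.1% to 82.1% of the summed FPKM of the 38 ligands in a library, and Ccl6, a myeloid CC ligand, took 9.06% to 16.6%. Among the receptors Cxcr4 was the most abundant in each library, followed by Cxcr2. Of the 57 genes, 24 had at least 1 FPKM in at least 3 libraries and were tested, 15 ligands and 9 receptors. The other 33 fell below that filter, and 6 of these (Ccl1, Ccl20, Ccl21b, Ccl21c, Ccl26 and Ccl27b) were listed at 0 in all libraries. Ccl21a, Ccl21b, Ccl21c, Ccl27a and Ccl27b belong to near-identical gene copies, so their values are uncertain.

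**Figure D2:**
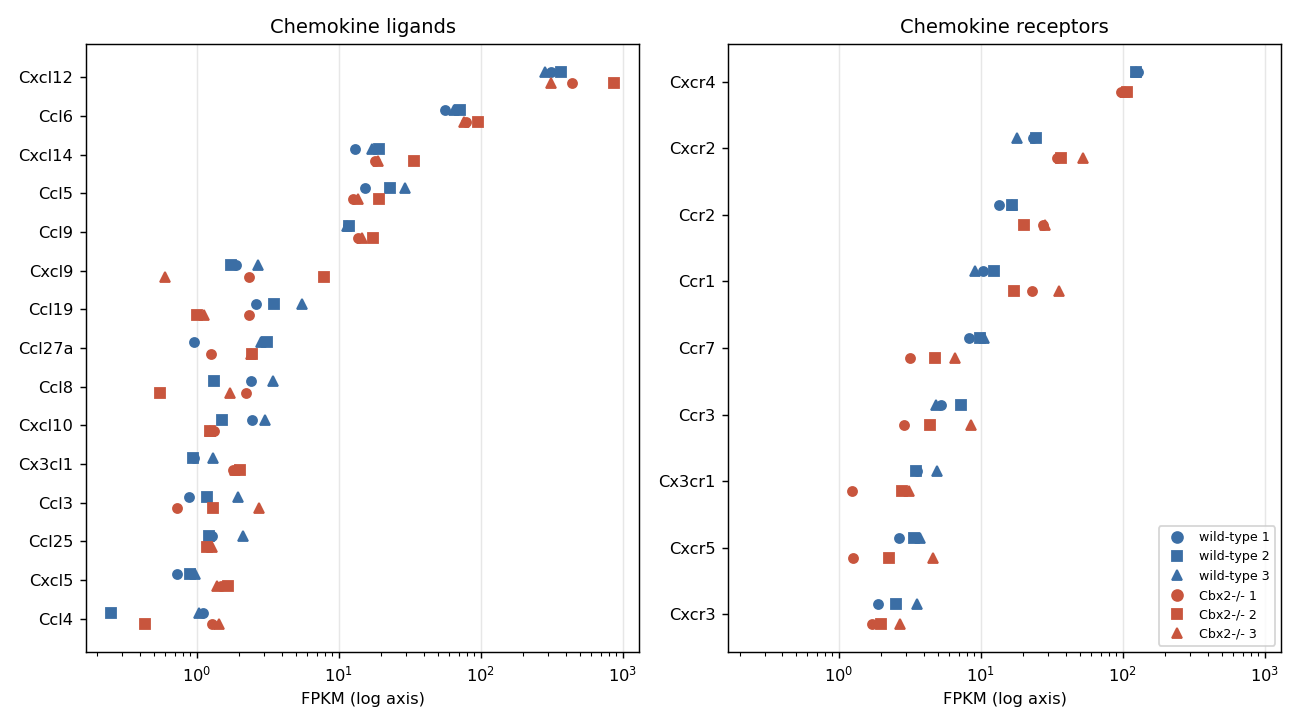
FPKM of the 24 tested chemokine genes on a log axis, with 1 point per library (blue wild-type, red Cbx2-/-, shapes for replicates). Cxcl12 and Cxcr4 lie at the top of their panels in both genotypes, and the red points of Ccr1, Ccr2 and Cxcr2 lie to the right of the blue ones.

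Of the 24 tested genes, limma called 4 as higher and 2 as lower without Cbx2, at an adjusted p under 0.05 over all 12006 genes tested. The higher genes were the receptors Ccr1, Cxcr2 and Ccr2 and the ligand Cx3cl1, and the lower ones were the ligand Ccl19 and its receptor Ccr7. Of all tested genes, 17.1% passed, 8.8% as higher and 8.31% as lower, so the family's 6 of 24 stands beside a background that was itself large. At an unadjusted p under 0.05, 10 of the 24 passed, beside 32.5% of all tested genes. The groups did not overlap for 7 genes that were higher and 5 that were lower, where 21.4% and 18.2% of all tested genes were separated in these directions, 39.6% in both together. Cxcl5, counted in the 7 and in the 10, reached 1 FPKM only in Cbx2-/- libraries, so it was tested through the group where it is high. Cx3cl1, counted in the 4, the 7 and the 10, reached 1 FPKM in all Cbx2-/- libraries but in wild-type only in replicate 3. Its test thus also rests on passing the filter through the group where it is high. The median difference was 0.01 (log2) over the 24 genes and 0.02 over all tested genes. The 6 genes kept their direction in the 19 other analyses run (18 for Cx3cl1), but each call was lost in 6 to 10 of them. Leaving out wild-type replicate 1, 2 or 3 left 0 limma calls in the family (4 to 5 genes higher and 2 to 3 lower at an unadjusted p under 0.05). Over all genes these fits called 694 of 11814, 724 of 11793 and 726 of 11815, against 2055 of 12006 in the main fit. Leaving out Cbx2-/- replicate 3 gave 6 higher and 4 lower in the family, beside 3696 calls among all 11797 genes.

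**Figure D3:**
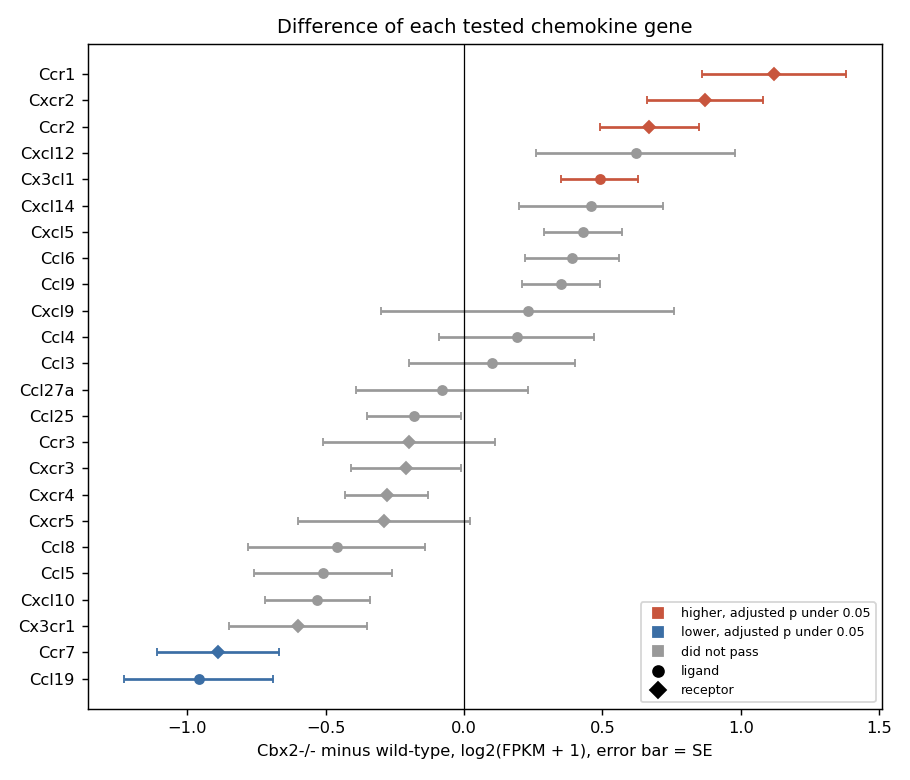
Difference of each tested gene, Cbx2-/- minus wild-type on the log2(FPKM + 1) scale, with its SE from limma; red and blue mark genes past the threshold, circles are ligands and diamonds receptors. Ccr1, Cxcr2 and Ccr2 lead the higher genes, and Ccr7 and Ccl19 are the lowest.

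Cxcl12 (chromosome 6, 117168535 to 117181367, plus strand), the ligand of Cxcr4, was at 313, 368 and 286 FPKM in the wild-type and 439, 873 and 313 FPKM in the Cbx2-/- libraries. The groups overlapped, since Cbx2-/- replicate 3 lay within the wild-type range and replicate 2 stood far above every other library. The difference of 0.62 ± 0.36 (log2, SE) did not pass (limma adjusted p = 0.282). It depended on single libraries: without Cbx2-/- replicate 3 it was 0.95 (limma adjusted p = 0.0289), and with replicates 1 and 2 left out it was -0.03. Markers of reticular stroma, the main source of Cxcl12 in marrow, summed to 270, 278 and 307 FPKM in Cbx2-/- replicates 1 to 3 and to 138 to 230 FPKM in wild-type, with 4 of 8 tested markers higher. Vcam1, which is also on the macrophage list, made up 166, 133 and 186 FPKM of the Cbx2-/- sums. In wild-type it made up 68.7, 125 and 84.9 FPKM. Without Vcam1 the sum of Cbx2-/- replicate 1 lies just below that of wild-type replicate 2, so the groups were apart only with this gene included. Adipoq, which is also on the adipocyte list, was at 54.8, 94.2 and 52.8 FPKM in these libraries and so was highest in replicate 2, like Cxcl12. On the stroma list Ebf3 and Il7 were also highest in replicate 2. Lepr (10.9, 13.3 and 14.8 FPKM), Kitl, Vcam1, Foxc1, Pdgfra and Pdgfrb were highest in replicate 3. Of the other tested adipocyte markers, Plin1, Cfd and Retn were highest in replicate 2, and Cidec and Fabp4 in replicate 3.

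Cxcr4 (chromosome 1, 128588199 to 128592293, minus strand) was at 129, 124 and 124 FPKM in the wild-type and 97.9, 108 and 103 FPKM in the Cbx2-/- libraries. Every Cbx2-/- value lay below every wild-type value, and the replicates of each genotype were close together. The ratio of means was 0.82, and the difference of -0.28 ± 0.15 (log2, SE) did not pass (limma adjusted p = 0.234). B cell precursors, which carry Cxcr4, had 12 of 12 markers lower in the same libraries. The atypical receptor Ackr3, which also binds Cxcl12 and clears it, was at 6.29, 6.86 and 4.40 FPKM in wild-type and 3.87, 3.19 and 8.56 FPKM in Cbx2-/- libraries, with overlapping groups (limma adjusted p = 0.68).

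Cxcr2 (chromosome 1, 74153989 to 74161246, plus strand) was at 23.4, 24.4 and 17.9 FPKM in the wild-type and 34.5, 36.6 and 52.6 FPKM in the Cbx2-/- libraries. The groups did not overlap, and the mean rose 1.88-fold, by 0.87 ± 0.21 (log2, SE, limma adjusted p = 0.0261). The adjusted p was 0.0702 with the replicate number as a block, and leaving out wild-type replicate 1, 2 or 3 raised it to 0.085, 0.072 and 0.111. Maturing neutrophils, the main carriers of Cxcr2, had marker sums of 38056 to 43201 FPKM in wild-type libraries and 77423, 84440 and 55042 FPKM in Cbx2-/- replicates 1 to 3, with 2 of 9 tested markers higher. Among the Cbx2-/- libraries replicate 3 had the least Ltf, Camp, Ngp, Lcn2 and Cd177. It also had the least S100a8 and S100a9, which dominate the sum, while Retnlg was lowest in replicate 1 and highest in replicate 2. Of the 9 markers, Mmp8 alone (161, 130 and 281 FPKM in replicates 1 to 3) was highest in replicate 3, as Cxcr2 was.

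Cxcr2 was then set against Cxcr4 within each library. The ratio of Cxcr2 to Cxcr4 FPKM was 0.182, 0.197 and 0.144 in the wild-type and 0.352, 0.339 and 0.51 in the Cbx2-/- libraries, with no overlap. On the log2 scale, with 1 FPKM added to each gene, the ratio was -2.48 ± 0.22 in wild-type and -1.32 ± 0.32 in Cbx2-/- marrow (SD, n = 3 each), a difference of 1.15. An exact two-sided permutation p of 0.1 was obtained, which is the lowest possible with 3 libraries a group. The ratio of Cxcl12 to Cxcr4 was 2.43, 2.97 and 2.30 in wild-type and 4.49, 8.07 and 3.03 in Cbx2-/- libraries, again apart, although replicate 3 lay just above the highest wild-type value (exact permutation, two-sided, p = 0.1). These ratios describe whole marrow, where the transcripts sit in different cells.

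**Figure D4:**
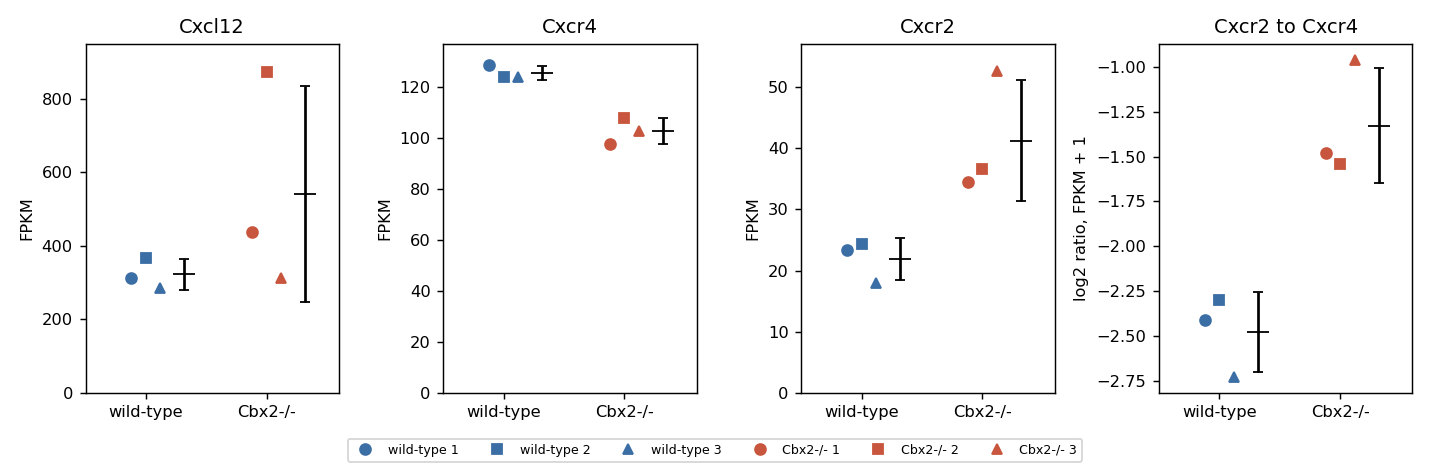
FPKM of Cxcl12, Cxcr4 and Cxcr2 and the log2 ratio of Cxcr2 to Cxcr4 (1 FPKM added to each) in each library, with the mean and SD of 3 libraries beside the points. Cxcr4 and Cxcr2 show separate groups in opposite directions, whereas Cxcl12 of Cbx2-/- replicate 3 lies among the wild-type values.

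The ligands of Cxcr2 within the name rule had low levels in marrow as a whole. Cxcl5, a neutrophil-attracting CXC ligand, was at 0.727, 0.891 and 0.973 FPKM in wild-type and 1.49, 1.67 and 1.38 FPKM in Cbx2-/- libraries. Its groups were apart, but its limma adjusted p was 0.0656. It reached the filter of 1 FPKM in the Cbx2-/- libraries alone, so it was tested only through the group where it is high. Cxcl2, another such ligand, was under the filter, at 0.0733, 0.0829 and 0.171 FPKM in wild-type and 1.09, 0.676 and 0.409 FPKM in Cbx2-/- libraries, a 6.64-fold ratio of means between low values. All 3 Cbx2-/- libraries lay above the wild-type ones, and the limma adjusted p was 0.0435 with no filter. Under a lower filter of 0.3 FPKM it would be tested only through the group where it is high. Cxcl1 and Cxcl3 stayed at or below 0.313 FPKM in all libraries, with overlapping groups. Cxcr1, the second neutrophil receptor of this kind, was at 0.34, 0.39 and 0 FPKM in wild-type and 0.554, 0.536 and 0.95 FPKM in Cbx2-/- libraries, apart but under the filter (limma adjusted p = 0.135 with no filter). Ppbp, a platelet CXC ligand of Cxcr2 outside the name rule, was far more abundant, at 785, 376 and 407 FPKM in wild-type and 230, 408 and 217 FPKM in Cbx2-/- libraries, with overlapping groups (limma adjusted p = 0.145).

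Receptors of monocytes and other myeloid cells rose as well. Ccr1 (chromosome 9, 123962124 to 123968692, minus strand), the receptor of Ccl3, Ccl5, Ccl6 and Ccl9, was at 10.3, 12.5 and 9.09 FPKM in wild-type and 22.8, 17.2 and 35.7 FPKM in Cbx2-/- libraries. It rose 2.37-fold, by 1.12 ± 0.26 (log2, SE, limma adjusted p = 0.0232), with all Cbx2-/- values above all wild-type values. Ccr2 (chromosome 9, 124101950 to 124113557, plus strand), which takes Ccl2, Ccl7 and Ccl12, was at 13.4, 16.5 and 16.5 FPKM in wild-type and 27.6, 20.1 and 28.4 FPKM in Cbx2-/- libraries. It rose 1.64-fold, by 0.67 ± 0.18 (log2, SE, limma adjusted p = 0.037), again without overlap. Both calls were lost with the replicate block (limma adjusted p = 0.0516 for Ccr1 and 0.0791 for Ccr2) and when wild-type replicate 1, 2 or 3, or Cbx2-/- replicate 1, was left out (0.0618 to 0.102 for Ccr1 and 0.102 to 0.156 for Ccr2). Monocyte markers summed to 465 to 520 FPKM in wild-type and 736 to 796 FPKM in Cbx2-/- libraries, with 2 of 6 higher, and macrophage markers to 700 to 837 and 1205 to 1509.5 FPKM, with 5 of 11 higher.

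The tested ligands of Ccr1 did not pass in either direction, and the 3 ligands of Ccr2 were under the filter and not tested. Ccl6 was at 56.0, 71.0 and 64.7 FPKM in wild-type and 79.4, 96.4 and 76.6 FPKM in Cbx2-/- libraries, apart by a narrow margin, with a difference of 0.39 ± 0.17 (log2, SE, limma adjusted p = 0.16). Its neighbour Ccl9 was tight in wild-type, at 11.6, 11.8 and 11.5 FPKM, and stood at 13.6, 17.5 and 14.5 FPKM in Cbx2-/- libraries, a difference of 0.35 ± 0.14 (log2, SE, limma adjusted p = 0.122). Ccl5, a ligand made by T and NK cells among others, was at 15.2, 22.8 and 29.1 FPKM in wild-type and 12.6, 19.1 and 13.7 FPKM in Cbx2-/- libraries, with overlap (limma adjusted p = 0.209). Ccl3 and Ccl4, inducible ligands of myeloid and other cells, had group means of 0.8 to 1.6 FPKM and overlapping groups. The monocyte ligand Ccl2 was at 0.299 to 0.56 FPKM in wild-type and at 0.229, 1.47 and 5.68 FPKM in Cbx2-/- replicates 1 to 3, so its higher mean came mostly from replicate 3. Ccl7 and Ccl12 did not exceed 1.27 FPKM.

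Ccr3, the receptor of eosinophils, was at 5.29, 7.21 and 4.81 FPKM in wild-type and 2.87, 4.36 and 8.55 FPKM in Cbx2-/- libraries, with a limma adjusted p of 0.72. Its highest value was in Cbx2-/- replicate 3. There the markers of eosinophils, basophils and mast cells had their lowest sum, 319 FPKM, of which the granule protein gene Prg2 made up 279 FPKM. Prg2, Epx and Mcpt8 had their lowest value of all 6 libraries there. Cpa3, Ms4a2, Fcer1a and Il5ra, a receptor gene of eosinophils at 1.29 FPKM and under the filter, had their highest. Siglecf was at neither end. The Ccr3 ligands Ccl11 and Ccl24 stayed at or below 0.0896 FPKM. Ccl8, a ligand of Ccr8, was at 1.33 to 3.47 FPKM in wild-type and 0.55 to 2.23 FPKM in Cbx2-/- libraries (limma adjusted p = 0.372), while Ccr8 was above 0 in 1 library.

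The lymphoid homing pair fell on both sides. Ccr7 (chromosome 11, 99144196 to 99155077, minus strand), which guides naive lymphocytes and dendritic cells to lymphoid tissue, was at 8.23, 9.83 and 10.6 FPKM in wild-type and 3.18, 4.79 and 6.56 FPKM in Cbx2-/- libraries. Its level fell 1.97-fold with separate groups, a log2 difference of -0.89 ± 0.22 (SE) with a limma adjusted p of 0.0303. Its ligand Ccl19 (chromosome 4, 42754525 to 42756577, minus strand) was at 2.62, 3.48 and 5.48 FPKM in wild-type and 2.32, 1.01 and 1.12 FPKM in Cbx2-/- libraries. Its level fell 2.6-fold, a log2 difference of -0.96 ± 0.27 (SE) with a limma adjusted p of 0.0444, and Cbx2-/- replicate 1 lay just below the lowest wild-type value. The call of Ccl19 was lost with the replicate block (limma adjusted p = 0.0813). Leaving out wild-type replicate 1, 2 or 3 ended both calls (limma adjusted p = 0.0739, 0.111 and 0.118 for Ccr7, and 0.0629, 0.122 and 0.149 for Ccl19). So did leaving out Cbx2-/- replicate 2 (0.0515 for Ccr7 and 0.0934 for Ccl19), and the call of Ccr7 was also lost without Cbx2-/- replicate 1 (0.0746).

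Other lymphocyte receptors moved less clearly. Dendritic cell markers summed to 74.4 to 106 FPKM in wild-type and 48.4 to 59.0 FPKM in Cbx2-/- libraries (1 of 6 lower), T cell markers to 31.7 to 51.8 and 26.4 to 55.3 FPKM (1 of 7 lower), and mature B cell markers to 121 to 177 and 106 to 162 FPKM (1 of 4 lower). Most of the dendritic cell sum was Bst2, at 56.7, 60.3 and 89.6 FPKM in wild-type and 46.7, 42.5 and 26.9 FPKM in Cbx2-/- libraries. Bst2 did not pass (limma adjusted p = 0.0672). On that list Flt3 and Zbtb46 had higher means in Cbx2-/- marrow, and the other genes lower ones. Cxcr5, the follicular B cell receptor, was at 2.65, 3.40 and 3.74 FPKM in wild-type and 1.27, 2.25 and 4.64 FPKM in Cbx2-/- libraries (limma adjusted p = 0.576), and its ligand Cxcl13 did not exceed 0.136 FPKM. Without Cbx2-/- replicate 3, Cxcr5 was lower by 0.64 (log2, limma adjusted p = 0.0347). Ccr9, which takes Ccl25, was under the filter and apart, at 1.21, 0.486 and 0.862 FPKM in wild-type and 0.246, 0.35 and 0.416 FPKM in Cbx2-/- libraries (limma adjusted p = 0.112 with no filter). Ccl25 itself was at 1.23 to 2.12 and 1.18 to 1.28 FPKM (limma adjusted p = 0.51). Ccl22, a ligand of the T cell receptor Ccr4, was at 0.61, 0.437 and 0.713 FPKM in wild-type and 0.0721, 0.3 and 0.19 FPKM in Cbx2-/- libraries. It was apart and under the filter, with a limma adjusted p of 0.0452 with no filter. Ccl17, its neighbour with the same receptor, reached 1.73 FPKM with overlapping groups.

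The interferon-inducible ligands of Cxcr3 differed in pattern. Cxcl10 was at 2.45, 1.51 and 3.04 FPKM in wild-type and 1.32, 1.25 and 1.25 FPKM in Cbx2-/- libraries, apart but not called (limma adjusted p = 0.0947). Cxcl9 was at 1.89, 1.75 and 2.69 FPKM in wild-type and 2.32, 7.87 and 0.596 FPKM in Cbx2-/- libraries, so that its highest and lowest values were both in Cbx2-/- marrow (limma adjusted p = 0.819). Cxcl11 did not exceed 0.155 FPKM, and it shares its locus in the deposited table with Cxcl10, so the split between them is uncertain. Cxcr3 itself, carried by T and NK cells, was at 1.90 to 3.57 FPKM in wild-type and 1.72 to 2.72 FPKM in Cbx2-/- libraries (limma adjusted p = 0.534).

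In the fractalkine pair the ligand passed and the receptor did not. Cx3cl1 (chromosome 8, 94772009 to 94782427, plus strand), a membrane-anchored ligand of endothelium and other cells, was at 0.959, 0.946 and 1.31 FPKM in wild-type and 1.80, 2.02 and 1.86 FPKM in Cbx2-/- libraries. It rose 1.77-fold, by 0.49 ± 0.14 (log2, SE, limma adjusted p = 0.0479), with tight and separate groups at a low level. In wild-type it reached the filter of 1 FPKM only in replicate 3, so it was tested through the group where it is high. The call was lost with the replicate block (limma adjusted p = 0.11) and when any library other than Cbx2-/- replicate 3 was left out (0.0828 to 0.173). Endothelial markers summed to 90.2 to 94.0 FPKM in wild-type and 181 to 204 FPKM in Cbx2-/- libraries, with 6 of 8 higher. Its receptor Cx3cr1, of patrolling monocytes and macrophages, was at 3.55, 3.50 and 4.91 FPKM in wild-type and 1.24, 2.81 and 3.12 FPKM in Cbx2-/- libraries. The groups were apart, but the difference of -0.60 ± 0.25 (log2, SE) did not pass (limma adjusted p = 0.139). Ccr2 and Cx3cr1, which mark different monocyte subsets, thus lay on opposite sides of zero, and of these Ccr2 passed; the difference between them was not tested.

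The remaining tested ligands did not pass. Cxcl14, a CXC ligand of skin and stroma, was at 13, 19.1 and 17.1 FPKM in wild-type and 18.1, 34.1 and 18.9 FPKM in Cbx2-/- libraries (limma adjusted p = 0.264). Like Cxcl12 and Cxcl9 it was highest in Cbx2-/- replicate 2. Ccl27a was at 0.964 to 3.12 FPKM in wild-type and 1.26 to 2.44 FPKM in Cbx2-/- libraries (limma adjusted p = 0.898). Cxcl16, a transmembrane ligand, and its receptor Cxcr6 were under the filter, at 0.554 to 1.65 FPKM and 0.357 to 1 FPKM. The 27 genes under the filter with a value above 0 reached 5.68 FPKM at most, in the library of Ccl2 named above. In limma with no filter, 2 of these 27 passed, Cxcl2 and Ccl22. Xcr1, a receptor of cross-presenting dendritic cells, did not exceed 0.163 FPKM, Ccr4 0.0758, Ccr10 0.302, Ccr1l1 0.648 and Ccr6 1.01 FPKM.

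Called and uncalled genes lay side by side in the chemokine gene clusters. With a limit of 1000000 bases between neighbours, 42 of the 57 genes lay in 10 clusters. The cluster with the most genes, on chromosome 9, holds receptor genes, with Ccr1, Ccr1l1, Ccr3 and Ccr2 in this order. Ccr1 and Ccr2 rose there, while Ccr3, which lies between them, had overlapping groups. In the CC ligand cluster of chromosome 11 (139 kb), Ccl6 and Ccl9 had higher means and Ccl5 a lower mean in Cbx2-/- marrow, and limma called 0 of the 5 genes, with Ccl9 the one whose unadjusted limma p was under 0.05. The nearby cluster of Ccl2, Ccl7, Ccl11, Ccl12, Ccl8 and Ccl1 (144 kb) was low throughout. The CXC ligand cluster of chromosome 5 (147 kb) had separate groups at its ends, Cxcl5 and Cxcl2, and overlapping groups at Cxcl3, Cxcl15 and Cxcl1. Neither Cxcl5 nor Cxcl2 reached 1 FPKM in a wild-type library.

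**Figure D5:**
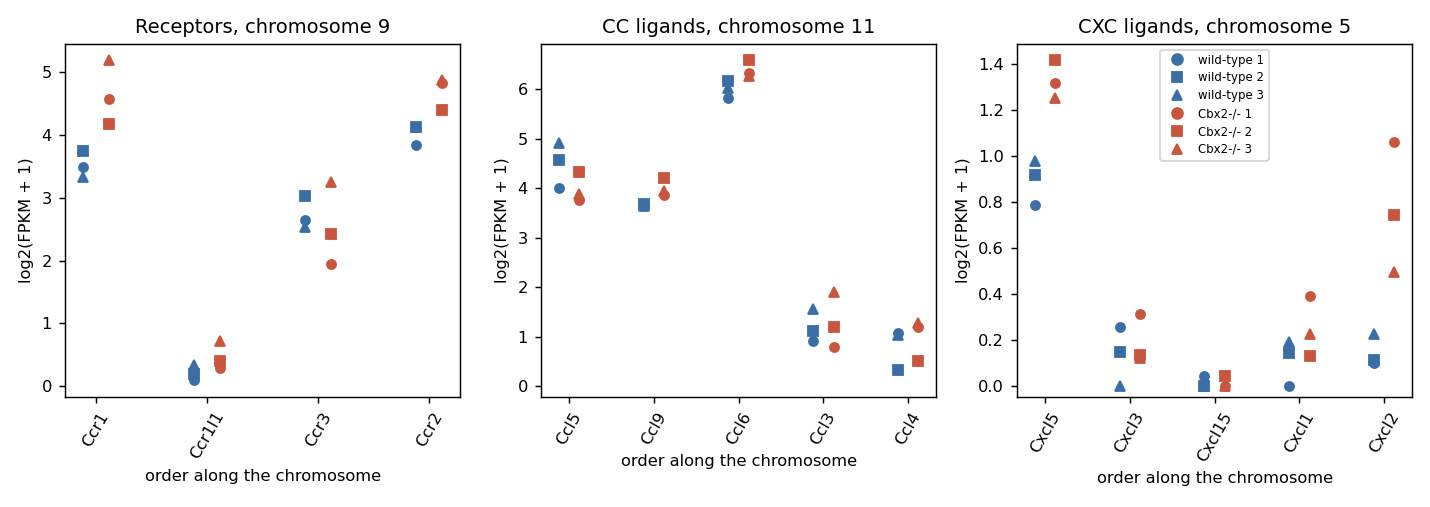
Level of each gene, log2(FPKM + 1), in a stretch of the receptor cluster from Ccr1 to Ccr2 and in 2 ligand clusters, ordered along the chromosome, with 1 point per library. Red points stand above blue ones at Ccr1 and Ccr2 but not at Ccr3 between them, and at Cxcl5 and Cxcl2 at the ends of the CXC cluster.

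The Cbx2-/- libraries were more variable than the wild-type ones. The SD of log2 levels was larger in Cbx2-/- than in wild-type marrow for 15 of the 24 tested genes, with medians of 0.37 and 0.23. Of all tested genes 74.1% showed this order, with medians of 0.25 and 0.14. Among the 3 Cbx2-/- libraries, replicate 3 held the highest value for 11 of the 24 genes, replicate 2 for 10 and replicate 1 for 3.

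Other genes that act in retention and release were followed as a list, without the chemokine genes themselves. Of its 26 tested genes, 13 rose, 2 fell and 11 did not pass by limma, with a median difference of 0.80 (log2), beside 8.8% and 8.31% of all tested genes and a median of 0.02. Gfi1, a repressor needed for neutrophil development, averaged 12.3 ± 0.7 FPKM in wild-type and rose to 25.9 ± 2.32 FPKM (SD, n = 3). The growth factor receptor genes Csf2rb and Csf2rb2 rose 2.37-fold and 2.04-fold. The stem cell receptor gene Kit rose 2.04-fold, as did its ligand Kitl, a stromal factor, by 2.09-fold. Itgam, an integrin chain of myeloid cells, rose 1.78-fold, and Csf3r, the receptor of the growth factor that mobilises neutrophils, rose 1.86-fold. Its ligand Csf3 stayed at or below 0.0754 FPKM. Proteases that can cut Cxcl12 moved apart: Ctsg rose 2.79-fold and Mmp9 1.71-fold, Elane did not pass (655 and 1266.2 FPKM on average, limma adjusted p = 0.0811), and Dpp4, which inactivates Cxcl12, fell from 5.95 ± 0.591 to 2.21 ± 1.35 FPKM.

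Adhesion genes of retention differed among themselves. Itga4, an integrin chain that binds Vcam1, fell 1.47-fold (limma adjusted p = 0.0479), a call kept in 5 of 19 other analyses. The integrin chain gene Itgb2 and the selectin genes Sele and Selp, which serve leukocyte adhesion, rose 1.65-fold, 1.86-fold and 1.92-fold, whereas Vcam1 was at 68.7, 125 and 84.9 FPKM in wild-type and 166, 133 and 186 FPKM in Cbx2-/- libraries, apart but not called (limma adjusted p = 0.0615). Kitl and Vcam1 are also on the list of reticular stroma markers. Promyelocyte markers, which include Ctsg and Elane, summed to 1873 to 2080 FPKM in wild-type and to 4972, 4421 and 2309 FPKM in Cbx2-/- replicates 1 to 3. The number of higher genes on this list was 4 to 5 when a wild-type library was left out.

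Of 42 tested genes of chemotaxis signalling, 13 rose, 1 fell and 28 did not pass, with a median difference of 0.36 (log2), beside 8.8% higher and 8.31% lower of all tested genes. The 13 include Rgs1 (limma adjusted p = 0.0499), which reached the filter of 1 FPKM only through the Cbx2-/- libraries, where it is high. Leaving out wild-type replicate 1, 2 or 3 left 6 higher and 0 lower by limma, and leaving out Cbx2-/- replicate 1 left 7 and 0, while 19 were higher without Cbx2-/- replicate 3. The neutrophil marker sums given above were also higher in every Cbx2-/- library, and least so in replicate 3. Of the higher genes named next, Fpr2 and Fpr1 were highest in replicate 3 among Cbx2-/- libraries, and Fgr, Gng12 and Arrb2 lowest there. The part of the marker sums in this list was not tested. The formyl peptide receptor genes Fpr2 and Fpr1, sensors of bacterial peptides on neutrophils, rose 2.73-fold and 2.34-fold, and Fgr, a myeloid Src-family kinase, 1.98-fold. Gng12, a G protein subunit gene, rose 2.03-fold. The arrestins, which desensitise chemokine receptors, went apart: Arrb2 rose from 88.2 ± 12 to 188 ± 9.2 FPKM and Arrb1 fell from 52 ± 6.29 to 31.2 ± 2.41 FPKM (SD, n = 3 each). The main inhibitory G protein gene Gnai2 was at 341 and 433 FPKM on average and did not pass (limma adjusted p = 0.264).

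Of 15 tested genes of the chemokine system outside the name rule, 1 rose and 1 fell, beside 8.8% and 8.31% of all tested genes. Leaving out wild-type replicate 1 or 3 ended both calls, and leaving out wild-type replicate 2 or Cbx2-/- replicate 1 ended that of the lower gene. Rarres2, the gene of the attractant chemerin, averaged 11.2 ± 2.38 FPKM in wild-type and rose to 33.7 ± 12.7 FPKM (SD, n = 3). Its receptor gene Cmklr1 did not pass, at 1.34 and 1.94 FPKM on average (limma adjusted p = 0.325). Ccrl2, which binds chemerin without signalling, fell from 9.35 ± 1.23 to 4.35 ± 1.76 FPKM. The scavenging receptors Ackr1 and Ackr4 did not pass, at 36.5 and 34.4 FPKM and at 7.7 and 6.5 FPKM on average. Pf4, the platelet ligand next to Ppbp, was at 797, 441 and 652 FPKM in wild-type and 305, 503 and 256 FPKM in Cbx2-/- libraries (limma adjusted p = 0.115).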

How the data were processed

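RNA from bone marrow had been sequenced as 50-base single-end reads of stranded poly(A) libraries, per the labels' protocols. Per the submitters' processing notes, FastQC 0.11.5, TopHat2 2.1.0 and Cufflinks 2.2.1 were used with mm10, and settings, gene annotation and strand setting are not given there, so values of overlapping or near-identical genes are uncertain. The authors deposited FPKM values, and read counts were not used here. The sources used here give no sequencing depth. From ratios of low values, the other libraries were at 0.912 to 1.221 times the depth of wild-type replicate 1, and low FPKM rest on few reads.

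Values were analysed as log2(FPKM + 1), which understates changes of low genes. Genes reaching 1 FPKM in 3 or more libraries were tested with limma 3.58.1 in R 4.3.3 (mean-variance trend, two-sided, no covariate, Benjamini-Hochberg adjustment over 12006 genes, threshold 0.05), a fit also tested on simulated data. Single ratios were tested with exact permutation in scipy 1.17.1. With animals as replicates, 3 per genotype limit precision. Folds are ratios of mean FPKM. The family, the pathway and marker lists and the alternatives were chosen with earlier results of these data known. Named were the genes past the threshold, the 8 most abundant, Cxcr1, Cx3cr1, Cxcr5 and Ccr9, the ligands or receptors of these, low genes with separate groups and a group mean of at least 0.5 FPKM, and up to 5 genes per pathway list with the lowest adjusted p. Elane, Vcam1, Mmp9, Ctsg, Dpp4, Itga4, Csf3r, Kitl, Arrb1, Cmklr1, Gnai2, Csf3, Pf4, the Ackr genes and the library values of Cxcl5, Cxcl9, Cxcl10, Ccl2 and Ccr3 were added after their values were seen. So were Itgb2, Sele, Selp and Rgs1. Gene positions come from GENCODE vM21, on the GRCm38 assembly that mm10 is, which overlapped the deposited locus for 55 of 56 matched genes. A gene of the family that is included in the counts is not reported here. Figures were drawn with matplotlib 3.10.9.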

Additional observations from a re-analysis of the deposited data

How the results depend on the processing

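Removing the filter ended the calls of Ccr1, Ccr2, Ccr7 and Ccl19. With the libraries rescaled without haemoglobin genes, 0 chemokine genes were higher and 0 lower (limma, 7 and 3 at an unadjusted p under 0.05), and the share of calls over all genes that were higher moved from 51.4% to 37.9%. The number of higher chemokine genes was 2 with median-of-ratios scaling, quantile normalization or the sex pattern covariate, and 7 with array weights. The number of lower ones was 1 with no filter or the sex covariate and 8 with array weights. Over all 12006 genes, limma called 2055 in the main fit, 2040 with median-of-ratios scaling and 2179 with quantile normalization. It called 1557 with the sex covariate and 5962 with array weights, 1579 of 12001 without haemoglobin and 1792 of 18108 with no filter. Cxcr2 did not pass with quantile normalization (0.93, adjusted p = 0.0505) or without haemoglobin (0.85, adjusted p = 0.091). Cxcl12 and Cxcr4 passed with array weights (0.55 and -0.34). With Cbx2-/- replicates 1 and 2 left out, a fit that takes the spread of its single Cbx2-/- library from the wild-type group, Cxcl12 was at -0.03 and the log2 ratio of Cxcr2 to Cxcr4 at 1.52.

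The replicate numbers did not pair the libraries: deviations of same-numbered libraries correlated at 0.194, -0.179 and -0.103, and wild-type replicate 2 correlated best with Cbx2-/- replicate 3. With the replicate block, 0 chemokine genes were higher and 1 lower (6 and 5 at an unadjusted p under 0.05), Cxcr2 was at 0.87 (adjusted p = 0.0702), 8 signalling genes were higher and 0 lower, and 1 retention and release gene was lower. The block fit called 1368 of all 12006 genes.

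Leaving out 1 library at a time gave 0 to 6 higher and 0 to 4 lower chemokine genes, and differences of 0.21 to 0.95 for Cxcl12, 0.69 to 0.98 for Cxcr2 and -0.32 to -0.25 for Cxcr4, with 0.97 to 1.26 for the ratio. It gave 4 to 15 higher and 0 to 2 lower retention and release genes, 6 to 19 higher and 0 to 1 lower signalling genes, and 0 to 3 higher and 0 to 3 lower genes of the chemokine system outside the name rule. Over all genes, these fits called 694 to 3696, against 2055 in the main fit. Lower retention and release genes numbered 0 with no filter or without haemoglobin, and 1 with the filter of 0.3 FPKM, median-of-ratios scaling, quantile normalization, no trend, the sex covariate or Cbx2-/- replicates 1 and 2 left out. Higher signalling genes numbered 7 without haemoglobin, 25 with array weights (4 lower) and 21 with those replicates left out. Genes outside the name rule numbered 5 higher and 6 lower with array weights, 3 and 6 with those replicates left out, and 2 lower with the filter of 0.3 FPKM.

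Differences that changed sign were those of genes that did not pass. Ccl27a was at 0.12, 0.07, 0.12 and 0.12 without wild-type replicate 2 or 3, Cbx2-/- replicate 1, or Cbx2-/- replicates 1 and 2. Ccl3 was at -0.33, -0.04 and -0.20 with array weights, without wild-type replicate 1 and without Cbx2-/- replicate 3, and Ccl4 at -0.06 without wild-type replicate 2. Ccr3 was at 0.10 without Cbx2-/- replicate 1 and Cxcr5 at 0.02. With replicates 1 and 2 both left out Ccr3 was at 0.51, Cxcr5 at 0.41, Cxcr3 at 0.05 and Cxcl9 at -0.95, and Cxcl9 was at -0.42 without replicate 2 alone. Leaving out 1 library gave at most 0.36 for Ccl3, 0.43 for Ccl4 and 0.82 for Cxcl9, and values as low as -0.55 for Ccr3, -0.64 for Cxcr5 and -0.42 for Ccl27a. The cause was not tested.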
